A study of Mus musculus with 67 samples.

Results

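The transcription factor p53 and 9 genes that it is known to activate were followed in single-cell RNA sequencing of mouse preimplantation embryos after exposure to high-intensity light. The 10 genes, Trp53, Mdm2, Cdkn1a, Btg2, Ccng1, Trp53inp1, Bbc3, Phlda3, Sesn2 and Zmat3, were taken by their symbols from a table of 26414 genes, and all 10 were in it. Embryos of the light group received 5000 lx for 6 h as 2-cell embryos and were cultured in darkness afterwards, and those of the control group were kept at 0 lx. All embryos were of the C57BL/6 strain, with no genetic change named, and were made by in vitro fertilization. Females were 6 weeks and males 10 weeks old, and females had been injected with the hormones PMSG and HCG. Libraries were made by SMART-seq2, which copies whole polyadenylated transcripts of a cell, from 5 stages. The control group had 7 libraries of 2-cell embryos, 6 of 4-cell embryos, 4 of 8-cell embryos, 13 of morulae and 3 of blastocysts. The light group had 6, 8, 8, 6 and 6. An embryo that reached a later stage had survived the exposure, so the later light libraries come from the embryos that continued.

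p53 is held at a low level in unstressed cells because MDM2, a ubiquitin ligase, marks it for degradation. DNA damage and other stresses block this step, and p53 protein then accumulates, binds DNA as a tetramer and raises the transcription of genes for cell cycle arrest, apoptosis, repair and antioxidant defence. Mdm2 is itself a target, which closes a negative feedback loop. Since p53 is regulated largely at the level of its protein, the level of Trp53 RNA does not measure p53 activity.

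Total reads per library lay between 836010 and 8551674, and between 318176 and 2867034 of them were outside CT010467.1 and Gm42418, a pair of genes with ribosomal RNA sequence. The ratio of Gm42418 to CT010467.1 was 2.34 to 4.03 in control and 1.58 to 1.77 in light 2-cell libraries, and the groups were as separate at the 8-cell stage (2.01 to 2.34 and 1.52 to 1.71) and in morulae (2.34 to 4.14 and 1.49 to 1.67). A difference in library handling and the effect of light therefore cannot be told apart at these stages. At the 4-cell stage the ratio was 1.43 to 1.63 in light and 1.80 to 4.55 in control, except for control library 3 at 1.61. Outside that library handling and light cannot be told apart there either. In blastocysts the groups overlapped (1.42 to 1.45 in control and 1.29 to 1.75 in light). Reads of Y-linked genes, at 10 CPM or more in total, were found in 3 of 7, 4 of 6, 0 of 4, 0 of 13 and 0 of 3 control libraries in the order of the stages and in 2 of 6, 8 of 8, 3 of 8, 1 of 6 and 6 of 6 light libraries. Several cells of a group may thus come from 1 embryo, and p-values measure the spread between libraries only. In blastocysts, with 0 of 3 control and 6 of 6 light libraries, embryo sex and light cannot be told apart. The part of embryo sex at the other stages was not tested. Control 4-cell library 3 correlated more closely with the light libraries of its stage (median Pearson r 0.844) than with the other control libraries (0.788), the widest gap of the 6 control 4-cell libraries. Libraries 2, 4 and 6 also had a higher median r with light than with control, by less (0.737 and 0.732, 0.791 and 0.788, 0.793 and 0.791).

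Promoter sequences of 8 of the 10 genes were found in RefSeq (GRCm38.p6), in 11 windows of 250 bases before an annotated start. They are shown because p53 binds a sequence known as the p53 response element, made of 2 half-sites of 10 bases, and the table of values alone does not show where one lies. The p53 half-site consensus was searched with no mismatch. It reads the same on both strands. It was present in 4 of the 11 windows (36.4%), 1 each of Trp53, Mdm2, Cdkn1a and Ccng1, and in 2341 of all 32851 windows (7.13%). Capitals mark the matching half-sites.
Cdkn1a, chr17:29090729-29090978, plus strand: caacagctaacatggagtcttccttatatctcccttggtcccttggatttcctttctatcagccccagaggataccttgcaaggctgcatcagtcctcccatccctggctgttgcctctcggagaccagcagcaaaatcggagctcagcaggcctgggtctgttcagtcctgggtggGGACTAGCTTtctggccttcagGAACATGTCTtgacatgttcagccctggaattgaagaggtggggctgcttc
Ccng1, chr11:40755287-40755536, minus strand: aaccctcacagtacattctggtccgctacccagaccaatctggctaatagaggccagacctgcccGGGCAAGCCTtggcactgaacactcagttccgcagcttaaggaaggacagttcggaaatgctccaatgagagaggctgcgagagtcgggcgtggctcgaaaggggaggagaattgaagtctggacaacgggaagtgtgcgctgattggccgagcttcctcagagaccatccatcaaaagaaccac
Mdm2, chr10:117710759-117711008, minus strand: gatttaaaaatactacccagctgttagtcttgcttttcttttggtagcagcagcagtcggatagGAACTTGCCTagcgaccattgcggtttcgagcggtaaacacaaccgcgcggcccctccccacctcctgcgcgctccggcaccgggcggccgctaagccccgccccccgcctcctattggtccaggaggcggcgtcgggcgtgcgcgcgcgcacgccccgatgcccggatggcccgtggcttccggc
Trp53, chr11:69580109-69580358, plus strand: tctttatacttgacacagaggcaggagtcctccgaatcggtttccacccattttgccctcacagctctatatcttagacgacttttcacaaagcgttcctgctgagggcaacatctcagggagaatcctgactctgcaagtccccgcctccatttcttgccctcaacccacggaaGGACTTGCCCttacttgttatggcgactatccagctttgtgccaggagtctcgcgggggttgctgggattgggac

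The Cdkn1a window shown, which lies before the upstream annotated start of the gene, held 2 half-sites with 12 bases between them. Such a pair, with at most 13 bases between the half-sites, was present in 21 of the 32851 windows (0.0639%). The 20 bases that begin at the second of these half-sites, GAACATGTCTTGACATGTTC, lie 51 to 32 bases before the start and match the 2 adjoining half-sites at 19 of 20 positions. In Ccng1, the 20 bases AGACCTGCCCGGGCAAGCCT, 195 to 176 bases before its start, also matched at 19 of 20 positions. A match of 19 or more was found in 295 windows (0.898%). The windows of Btg2, Phlda3, Sesn2 and Bbc3 held no exact half-site. Nor did the further window of Cdkn1a, chr17:29093519-29093768, before its downstream annotated start. These matches are letters in a window and not measured binding, and sites further from the start or within introns were not searched.

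All values below are the deposited values, in which the authors had divided reads by a size factor for each library. Differences are light minus control on the scale log2(value + 1), given with their standard error. A gene was called when its adjusted p (limma, Benjamini-Hochberg over all genes tested) was under 0.05 and the change was at least 2-fold. Trp53, Mdm2, Cdkn1a, Trp53inp1 and Sesn2 had reads in all 67 libraries. Ccng1 was at 0 in 2 libraries, Zmat3 in 4, Bbc3 in 18, Phlda3 in 24 and Btg2 in 25. Per kilobase of exon, Sesn2 had the highest mean level of the 10 genes in 2-cell embryos of both groups (94.2 in control and 196 in light), and Ccng1 in blastocysts of both (38.8 and 39.3).

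**Figure D1:**
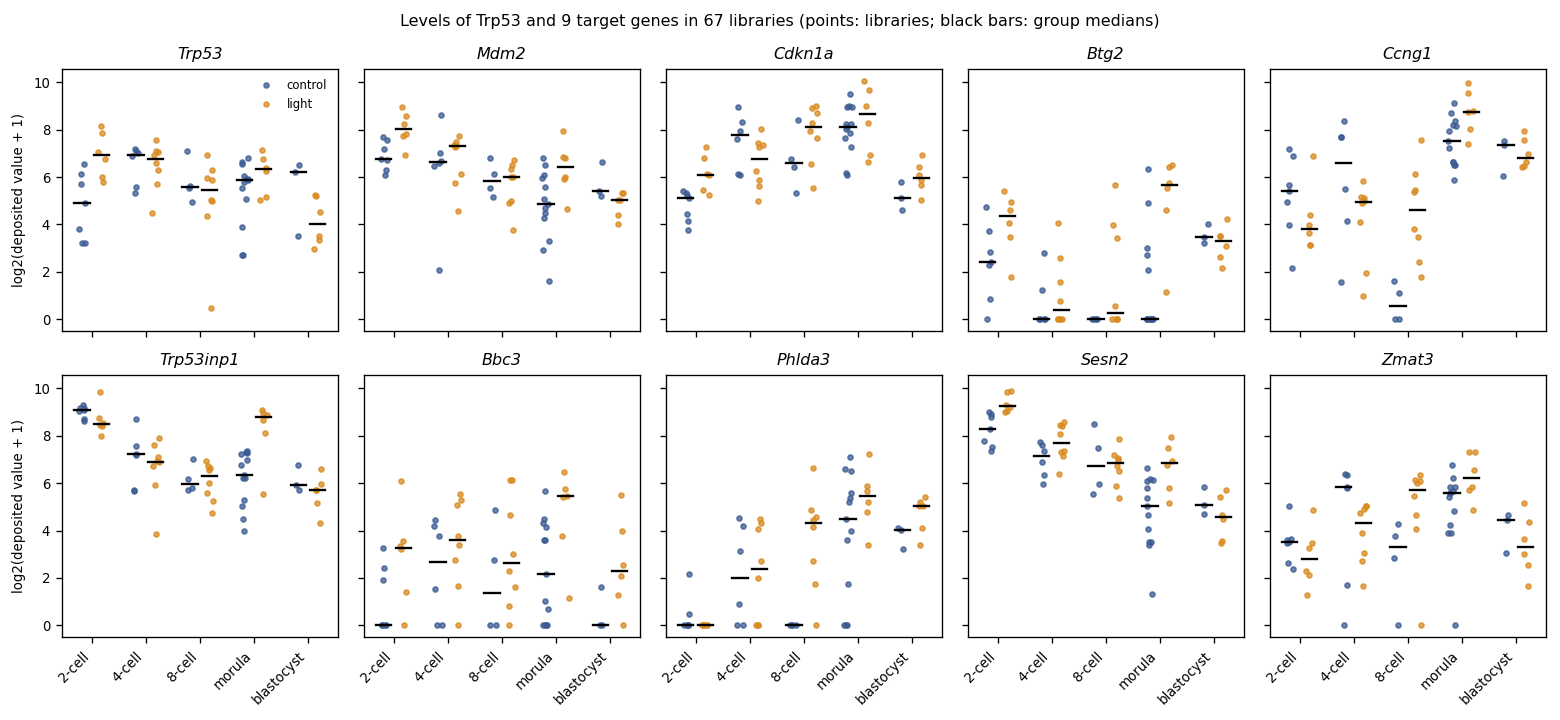
Level of each gene in each of the 67 libraries, as log2(deposited value + 1), by stage; blue points are control libraries, orange points are light libraries and black bars are group medians. Phlda3 and Btg2 were at 0 in all 4 control 8-cell libraries, and Trp53inp1 lay above every control morula in 5 of 6 light morulae.

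Across the 5 stages the 10 genes gave 6 calls between light and control out of 49 tests, and all 6 were higher in light. Of all genes tested, 10.5%, 1.45%, 9.21%, 1.18% and 5.34% were called in the order of the stages. They fell on different genes at different stages: Trp53, Mdm2 and Sesn2 in 2-cell embryos, Ccng1 and Phlda3 in 8-cell embryos, and Trp53inp1 in morulae. No call was made at the 4-cell or blastocyst stage.

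**Figure D2:**
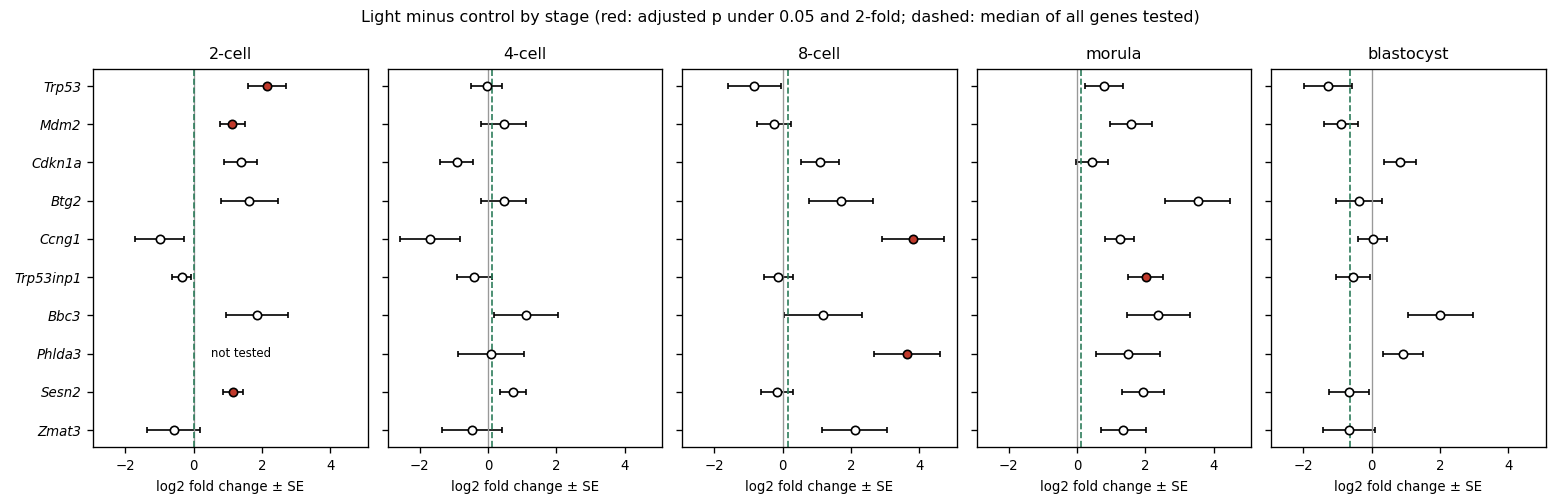
Difference between light and control at each stage for the 10 genes, as log2 fold change (horizontal axis) with its standard error; red points passed both thresholds and the dashed line is the median of all genes tested. In morulae all 10 points are above 0, and in blastocysts the median of all genes lies at -0.64.

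To ask which genes of the pathway differed directly after the exposure, 2-cell embryos were compared. Trp53, Mdm2 and Sesn2 were called of 9 genes tested, against 10.5% of all 18532 genes tested and 5.53% called higher in light. Phlda3 was not tested, since its level was 0 in all 6 light libraries and at most 3.45 in control. The median difference of the 9 genes was 1.15, and that of all genes was 0.00. In this comparison the summed level of 10 maternal and oocyte transcripts was also lower in light (694 to 1923 CPM outside the ribosomal pair) than in control (2129 to 4711), with none of the 10 at 0 in either group. Its part in the differences of the pathway genes was not tested.

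Trp53 (chr11:69580359-69591873 in GRCm38, plus strand) encodes p53. Its level lay between 8.33 and 92.4 in control 2-cell libraries, with a median of 28.7, and between 55.0 and 281.5 in light, with a median of 119.8. All 6 light libraries were above the control median and 4 were above the highest control library, so that the groups overlapped. The difference was 2.16 ± 0.55 (SE, adjusted p = 0.0102). An annotated pseudogene, Trp53-ps, could share reads with Trp53.

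Mdm2 (chr10:117688875-117710758, minus strand), the ubiquitin ligase that degrades p53, had a level of 66.2 to 203.5 in control, with a median of 107.2, and of 120.5 to 487.7 in light, with a median of 260.1. In 5 of 6 light libraries it was above the highest control library. The difference of 1.14 ± 0.36 was called (adjusted p = 0.0344). This call was lost without control library 8, 9 or 10 or light library 10, 14 or 15, each left out alone, with an adjusted p of 0.0590 to 0.106, and with no filter on low values (0.0579).

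Sesn2 (chr4:132492032-132510501, minus strand) encodes sestrin 2, which restrains mTORC1 signalling and supports antioxidant defence. Its level was 161.8 to 505 in control, with a median of 308, and 509 to 948 in light, with a median of 605. The groups did not overlap, which held for 4.15% of all genes tested at this stage. The difference was 1.15 ± 0.30 (adjusted p = 0.0107). In a fit over all 67 libraries the calls of Sesn2 and Mdm2 were lost (adjusted p = 0.159 and 0.253).

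Cdkn1a (chr17:29090976-29100727, plus strand) encodes p21, an inhibitor of cyclin-dependent kinases and the classical arrest target of p53. Its level was 12.5 to 41.7 in control, with a median of 33.4, and 36.7 to 153.6 in light, with a median of 67.6. In 5 of 6 light libraries it was above the highest control library, and the difference of 1.39 ± 0.48 missed the threshold (adjusted p = 0.0590). It passed with genes of a mean value above 5 only (adjusted p = 0.0427), with CPM outside the pair of ribosomal genes (0.0459), in edgeR (0.0295) and in DESeq2 (0.0126). It also passed without light library 15 or light library 16. On the other strand, 273 exonic bases of Cdkn1a overlap an unconfirmed transcript, AC167363.2, and reads of both cannot be told apart in a library that does not keep the strand.

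The other target genes were not called in 2-cell embryos. Btg2 (chr1:134075170-134079120, minus strand), an antiproliferative gene, had a median of 4.35 in control and 19.6 in light. Bbc3 (chr7:16308393-16318205, plus strand), which encodes the BH3-only protein PUMA of the BCL2 family, was at 0 in 4 of 7 control libraries and in 1 of 6 light libraries, with medians of 0 and 8.71. Their differences were 1.63 ± 0.84 and 1.85 ± 0.90 (adjusted p = 0.219 and 0.190). Ccng1, Trp53inp1 and Zmat3 had differences between -0.99 and -0.35.

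At the 4-cell stage 0 of the 10 genes were called by limma, against 1.45% of all 15010 genes tested. None of the 10 had an unadjusted p under 0.05 in limma, beside 2626 of all genes tested. Of the 10, edgeR called 0, and DESeq2 called Ccng1 lower in light (-2.24 ± 0.76, adjusted p = 0.0483). The 10 differences lay on both sides of 0, with 5 positive and a median of 0.02, beside a median of 0.13 over all genes. Trp53 had a median of 122.6 in control and 108.1 in light. Sesn2 had medians of 140.6 and 214.3 and a difference of 0.73 ± 0.38 (adjusted p = 0.316). Cdkn1a had medians of 220.6 and 113.9 and a difference of -0.92 ± 0.49 (adjusted p = 0.326). The number of calls stayed at 0 without control library 3 and without each of the other 13 libraries. The count over all genes did not hold: it was 218, with 22.9% lower in light, and became 771, with 49.8% lower, without control library 3, and 65 to 142 without control library 4 or 5 or any 1 of the 8 light libraries.

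In 8-cell embryos Ccng1 and Phlda3 were called of 10 genes tested, against 9.21% of all 13861 genes and 5.91% called higher in light. Of the genes called, 35.8% were lower in light, and 49.0% were with median ratio scaling. The median difference was 1.13 for the 10 genes and 0.16 for all genes. Maternal transcripts summed to 249 to 398 CPM in control and 93.3 to 173 in light, with no overlap of the groups. The sums overlapped for genes expressed transiently at the 2-cell stage (118 to 452 in control and 2.74 to 288 in light) and for the 10 trophectoderm markers (211 to 459 and 192 to 688), of which Cdx2, Krt8, Dppa1 and Krt7 were at 0 in all 4 control libraries. Their part in the differences below was not tested.

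Ccng1 (chr11:40748552-40755311, minus strand) encodes cyclin G1, a target of p53 that acts with protein phosphatase 2A on MDM2. The 4 control 8-cell libraries had levels of 0, 0, 1.16 and 2.09, from 6 reads in all. The 8 light libraries had levels of 2.49 to 186.4, with a median of 27.0, from 656 reads. All light libraries were above all control libraries, as was the case in one direction or the other for 5.61% of all genes tested. The difference was 3.82 ± 0.91 (adjusted p = 0.00872).

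Phlda3 (chr1:135766119-135769136, plus strand) encodes a PH-domain protein that competes with AKT for membrane lipids and so represses AKT. It had no read in the 4 control 8-cell libraries. In light it was at 0 in 1 library and reached 97.0, with a median of 18.9 and 333 reads in all. The mean in light, 24.2 ± 31.2 (SD, n = 8), was at least 50.1-fold higher than 0.483, the control mean that 3 reads over the 4 libraries would give. This bound was 28.5-fold without light library 5, the highest, and 30.8-fold without control library 4. The fitted difference was 3.64 ± 0.96 (adjusted p = 0.0173), a value that depends on the pseudocount.

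Btg2 was at 0 in all 4 control 8-cell libraries as well, but also in 4 of 8 light libraries, where the highest level was 49.4. Its mean in light, 9.29 ± 17.2 (SD, n = 8), was at least 19.3-fold higher than the control limit of 0.483, and the difference was not called (adjusted p = 0.262). Without light library 5 the bound for Btg2 was 7.36-fold, and without control library 4 it was 11.8-fold. Zmat3 (chr3:32334792-32366014, minus strand), a zinc-finger protein that binds RNA, had control levels of 0, 12.8, 18.6 and 6.26 and a light median of 52.9. Its difference of 2.11 ± 0.96 was not called (adjusted p = 0.167). Cdkn1a had control levels of 85.2, 338.1, 106.8 and 39.2 and a light median of 280.2, with a difference of 1.09 ± 0.55 (adjusted p = 0.215). Without light library 8, in which Zmat3 was at 0 and Trp53 at 0.387, Zmat3 (adjusted p = 0.0108) and Cdkn1a (0.0495) were called too, and the count rose from 2 to 4.

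In morulae Trp53inp1 was the 1 gene called of 10 tested, against 1.18% of all 15217 genes and 0.355% called higher in light. Of the genes called, 69.8% were lower in light, and 50.0% were with median ratio scaling. All 10 differences were positive, with a median of 1.54 beside 0.10 over all genes. An unadjusted p under 0.05 in limma was found for 7 of the 10 and for 2335 of all 15217 genes. Median ratio scaling moved the median of all genes to 0.21, and the 10 differences stayed positive in each of the 6 scalings and tools compared. Summed levels of maternal transcripts (12.2 to 135 CPM in control and 22.4 to 81.4 in light) and of trophectoderm markers (268 to 2345 and 745 to 1754) overlapped between the groups. The 179 genes called in morulae became 82 to 118 without light library 3, 5, 6, 9 or 12.

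Trp53inp1 (chr4:11156431-11174379, plus strand) encodes a stress protein that acts in autophagy and in p53-dependent apoptosis. Its level was 14.7 to 163.6 in 13 control morulae, with a median of 80.7. Of the 6 light morulae, 5 had levels between 278.3 and 538.6 and library 9 had 44.8. These 5 were above every control library. The difference was 2.01 ± 0.52 (adjusted p = 0.0433). It was called in each of the other scalings and by edgeR and DESeq2, with an adjusted p of 0.0818 when no filter on low values was used. Leaving out 1 library ended the call in 11 of 19 cases, namely light library 1, 3, 5, 6 or 12 or control library 6, 16, 18, 20, 23 or 26, with differences of 1.82 to 2.02 and an adjusted p of 0.0530 to 0.121.

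Btg2 was at 0 in 8 of 13 control morulae and reached 79.3, whereas light morulae had levels of 1.21 to 90.2, with a median of 49.1. All 6 light libraries were above the control median of 0. The difference of 3.53 ± 0.96 missed the threshold (adjusted p = 0.0562). It passed with median ratio scaling (0.0373), with CPM outside the ribosomal pair (0.0351), with genes of a mean value above 5 (0.0440) and in the fit over all libraries (0.00510), and without light library 9 or control library 2 or 21. It was not called with quantile normalization, with a pseudocount of 0.1 or with no filter on low values, nor in edgeR or DESeq2.

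Sesn2 had a median of 31.6 in control morulae and 114.1 in light, with 4 of 6 light libraries above the highest control library. Its difference was 1.93 ± 0.61 (adjusted p = 0.108), and it passed in the fit over all libraries (0.0102) and in DESeq2 (0.0477). Ccng1 had medians of 181.2 and 431.6 and a difference of 1.24 ± 0.42 (adjusted p = 0.133). Mdm2 had medians of 28.2 and 87.4, with a difference of 1.59 ± 0.62 (adjusted p = 0.191). Bbc3 had medians of 3.53 and 42.3, with a difference of 2.38 ± 0.92 (adjusted p = 0.189). Trp53 itself had medians of 58.5 and 78.9 and a difference of 0.78 ± 0.56 (adjusted p = 0.531).

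In blastocysts 0 of 10 genes were called by limma, against 5.34% of all 12743 genes and 0.353% called higher in light. The single gene of the 10 with an unadjusted p under 0.05 in limma was Bbc3, beside 2963 of all genes tested. Of the 10, edgeR called 0, and DESeq2 called Bbc3, Phlda3 and Cdkn1a higher in light. The median of all genes was -0.64 with the deposited scaling and -0.10 with median ratio scaling, and the share of called genes lower in light went from 93.4% to 53.7%. The 680 genes called became 89 without control library 2, with 66.3% lower in light, and 391 to 444 without control library 1 or light library 24, 26 or 29. The median of the 10 genes was -0.46 with the deposited scaling and turned to 0.16 with median ratio scaling, 0.27 with quantile normalization, 0.26 with CPM outside the ribosomal pair and 0.25 in edgeR and DESeq2. Cdkn1a had levels of 23.1, 33.7 and 54.6 in the control group and of 31.6 to 120.9, with a median of 62.0, in light. Its difference was 0.83 ± 0.48 with the deposited scaling (adjusted p = 0.300) and 1.48 ± 0.36 with median ratio scaling (adjusted p = 0.0369). It was also called with quantile normalization (0.0421) and with CPM outside the ribosomal pair (0.0254). Trp53 had control levels of 89.9, 73.1 and 10.3 and a light median of 16.2, with a difference of -1.27 ± 0.69 (adjusted p = 0.272). Trophectoderm markers summed to 1135 to 9508 CPM in control and 10046 to 13897 in light, with no marker of the list at 0 in every library of a group. The part of this difference in the values of the pathway genes was not tested.

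**Figure D3:**
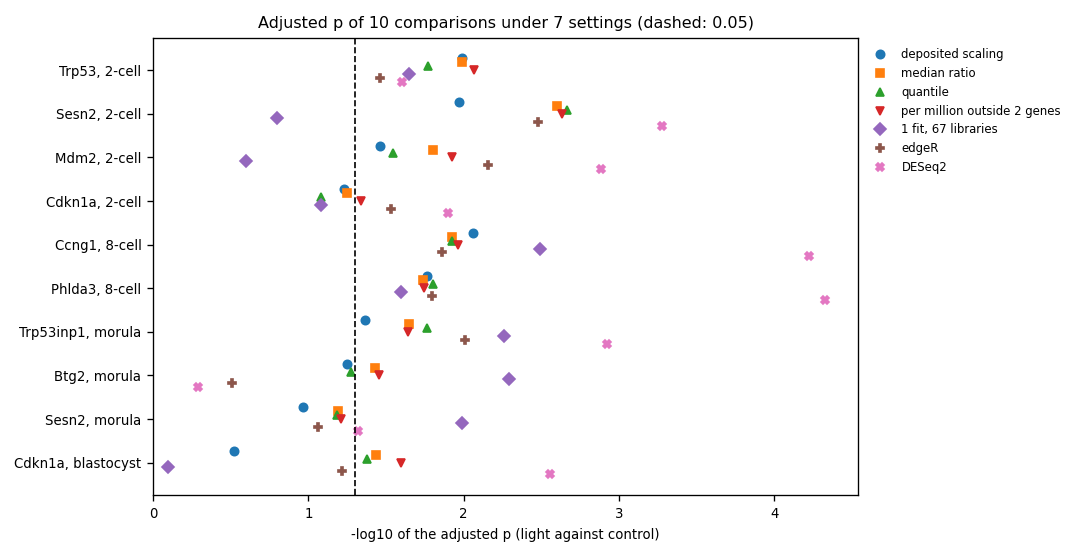
Adjusted p of 10 comparisons between light and control, as -log10 (horizontal axis), under 7 settings (symbols); the dashed line marks 0.05. Trp53 in 2-cell embryos, Ccng1 and Phlda3 in 8-cell embryos and Trp53inp1 in morulae lie to the right of the line in all 7, and the other 6 lie on both sides.

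The course of each gene from stage to stage was then compared within each group. In the control group 8 of 39 steps tested were called, 4 of them rises, and Btg2 was not tested from the 4-cell to the 8-cell stage because too few libraries had a value above 1. From the 2-cell to the 4-cell stage Cdkn1a rose (2.74 ± 0.53, adjusted p = 0.000213) and Trp53 rose (1.72 ± 0.61, adjusted p = 0.0259), while Trp53inp1 (-1.99 ± 0.42) and Sesn2 (-1.24 ± 0.40) fell. At this step 46.1% of all genes were called, 13.8% as rises and 32.3% as falls. The call of Trp53 was lost without control 2-cell library 10 or 11 or control 4-cell library 5 or 6 (adjusted p = 0.0509 to 0.0569). Cdkn1a had median levels of 33.4, 220.6, 96.0, 274.6 and 33.7 in the 5 stages in order, and its fall from morula to blastocyst was called (-2.83 ± 0.56, adjusted p = 0.00125, at a step where 11.9% of all genes were called and 5.11% fell).

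Ccng1 had the largest changes of the 10 genes in the control group. Its median went from 124.9 at the 4-cell stage to 0.580 at the 8-cell stage and 181.2 in morulae. The fall (-5.14 ± 1.12, adjusted p = 0.00879) and the rise (6.81 ± 0.55, adjusted p = 4.91e-09) were both called, at steps where 6.31% of all genes were called (5.17% fell) and 14.3% were (6.84% rose). Phlda3 rose from no read at the 8-cell stage to a median of 21.1 in morulae (3.86 ± 1.18, adjusted p = 0.0268). Both rises start from the 4 control 8-cell libraries. Without any 1 of these 4 libraries the call of Phlda3 was lost (adjusted p = 0.0660 to 0.0723).

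In the light group 17 of 40 steps were called, 4 of them rises. From the 2-cell to the 4-cell stage Mdm2 (-1.34 ± 0.41), Btg2 (-2.92 ± 0.76), Trp53inp1 (-2.04 ± 0.43) and Sesn2 (-1.66 ± 0.30) fell and Phlda3 rose (2.20 ± 0.72, adjusted p = 0.0153), where 36.5% of all genes were called, 7.43% as rises and 29% as falls. With median ratio scaling Mdm2 fell by less than 2-fold (-0.95 ± 0.37, adjusted p = 0.0421) and was not called, and Phlda3 was not tested among genes with a mean value above 5. Cdkn1a had median levels of 67.6, 113.9, 280.2, 410 and 62.0 over the 5 stages. From the 4-cell to the 8-cell stage Sesn2 fell (-1.02 ± 0.33, adjusted p = 0.0339), where 10.6% of all genes were called and 9.94% fell. This call was lost with median ratio scaling (adjusted p = 0.493), under which Cdkn1a rose instead (1.82 ± 0.42, adjusted p = 0.0150). It was also lost with no filter on low values (adjusted p = 0.0834) and without light 4-cell library 7, 11, 13 or 14 or light 8-cell library 9, 11 or 12 (adjusted p = 0.0543 to 0.0799).

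From the 8-cell stage to the morula Ccng1 (4.23 ± 0.63, adjusted p = 5.05e-05), Btg2 (3.29 ± 0.93, adjusted p = 0.0184) and Trp53inp1 (2.15 ± 0.44, adjusted p = 0.00155) rose in the light group, where 11.8% of all genes were called and 4.61% rose. Without light morula library 3 the rise of Btg2 was lost (adjusted p = 0.0530), as it was with no filter on low values (0.0579). In the control group Trp53inp1 differed by 0.02 ± 0.57 over the same step.

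The largest number of calls was in the step from morula to blastocyst in the light group. Of the 10 genes 8 fell, whereas 20.7% of all 13553 genes tested were called and 15.7% fell. The 8 changes on the log2 scale were -1.99 for Trp53, -1.51 for Mdm2, -2.42 for Cdkn1a, -1.80 for Btg2, -1.73 for Ccng1, -2.63 for Trp53inp1, -2.13 for Sesn2 and -2.86 for Zmat3. In the light group the median of all genes at this step was -0.45 with the deposited scaling and 0.05 with median ratio scaling, and the share of called genes that fell was 75.8% and 38.0%. With median ratio scaling 6 of these 8 falls were called, without those of Mdm2 (adjusted p = 0.179) and Btg2 (0.214). Mdm2 was also lost without light morula library 6 (adjusted p = 0.0600). Btg2 was lost without any 1 of light morula libraries 1, 3, 5, 6 and 12 or light blastocyst libraries 13, 15, 24, 26 and 29 (adjusted p = 0.0535 to 0.131), and with a pseudocount of 0.1 (0.105) or no filter on low values (0.139). In the control group 1 of the 10 genes, Cdkn1a, fell at this step.

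**Figure D4:**
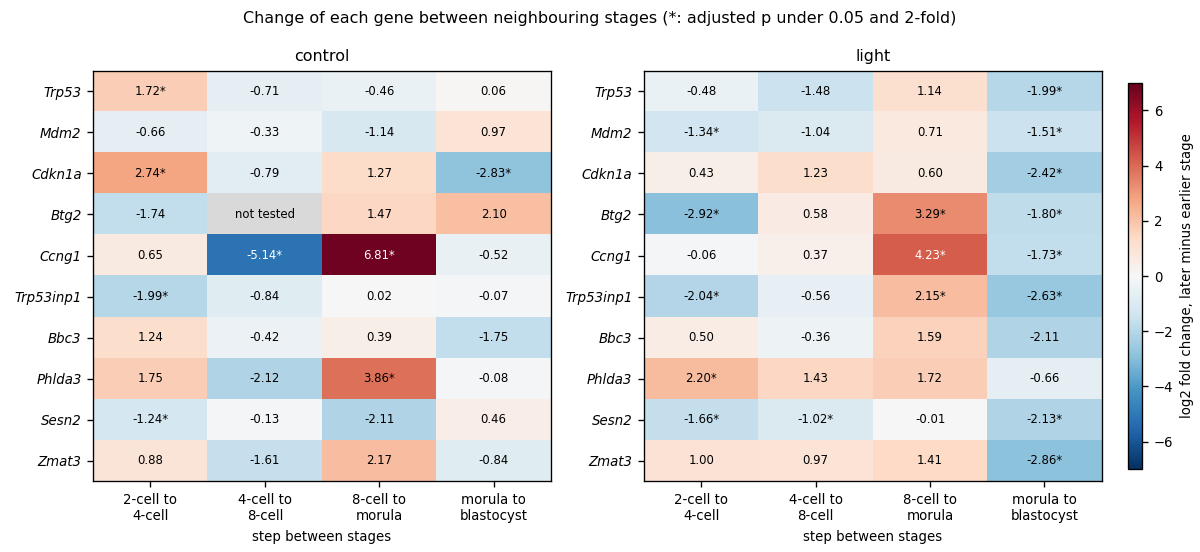
Change of each gene between neighbouring stages in the control and the light group, as log2 fold change (colour and printed value), with stars for calls. The light column from morula to blastocyst holds 8 stars, and the control column holds 1.

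Whether the difference between light and control changed between neighbouring stages was tested with an interaction term. Of 40 tests 1 was called, and over all genes the 4 terms were called for 3.07%, 3.8%, 2.62% and 1.57%, from the earliest pair of stages to the last. The difference of Ccng1 between light and control was 5.52 ± 1.36 higher at the 8-cell than at the 4-cell stage (adjusted p = 0.0144). In this gene the light median lay below the control median at the 4-cell stage (30.0 and 124.9) and above it at the 8-cell stage (27.0 and 0.580), so that most of the change was in the control group. For the step from morula to blastocyst the terms of Trp53inp1 (-2.56 ± 0.86, adjusted p = 0.120) and Sesn2 (-2.59 ± 1.01, adjusted p = 0.189) did not pass, and the larger number of falls in the light group is not shown to differ from that in the control group.

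Other genes of the pathway were taken from lists of 139 genes, of which 132 were in the table. In 2-cell embryos 21 of 117 tested were called (17.9%, 13 higher and 8 lower in light), beside 10.5% of all genes. Among 32 regulators of p53, 7 were higher and 3 lower. Set, a histone chaperone that restrains p53 acetylation, had a median of 357.5 in control and 1434 in light (2.18 ± 0.28, adjusted p = 1.62e-05). Hipk2, a kinase that phosphorylates p53 (-1.88 ± 0.28), and Mapk8, which encodes JNK1 (-1.52 ± 0.25), were lower in light with no overlap of the groups. The DNA damage checkpoint kinases Atm (1.06 ± 0.35, adjusted p = 0.0487) and Chek2 (1.60 ± 0.41, adjusted p = 0.0107) were higher. Crebbp, an acetyltransferase and coactivator of p53, was lower (-1.24 ± 0.21, adjusted p = 0.000316). Atm, Chek2 and Crebbp were named here after their values were seen. Among the arrest targets Btg1 (2.52 ± 0.69) and Ccng2 (1.61 ± 0.54) were higher and Prdm1 lower (-2.80 ± 0.77). Of 21 apoptosis targets 2 were higher. Pmaip1, which encodes the BH3-only protein NOXA, had medians of 1.30 in control and 43.7 in light (3.50 ± 0.93, adjusted p = 0.0127), and Ei24 300.5 and 839.6 (1.96 ± 0.37). The repair gene Fancc was lower (-1.56 ± 0.36). Sesn3 (-1.54 ± 0.46) was lower, opposite to Sesn2, as were Plxnb2 (-2.16 ± 0.61) and Fbxw7 (-2.75 ± 0.81). Of 14 secreted and other targets 0 were higher and 2 lower, with 1 positive difference and a list median of -0.68. Of 20 metabolism and autophagy targets 0 were higher and 1 lower. The other list medians lay between 0.18 for metabolism and autophagy and 0.65 for apoptosis, beside 0.00 over all genes.

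At the 4-cell stage 3 of 113 genes of these lists were called (2.65%, beside 1.45% of all genes). Btg1 (3.18 ± 0.82) and Gls2, a glutaminase (1.90 ± 0.47), were higher in light and Npm1, the nucleolar protein nucleophosmin, was lower (-1.08 ± 0.23).

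In 8-cell embryos 16 of 107 were called (15.0%, 11 higher and 5 lower), beside 9.21% of all genes. Of 21 apoptosis targets 4 were higher and 0 lower, with a list median of 0.78 beside 0.16 over all genes. The median was larger for secreted and other targets (1.16, with 1 higher and 0 lower of 11). It was 0.51 for arrest, 0.22 for metabolism and autophagy, 0.13 for DNA repair and 0.11 for regulators. Steap3, a metalloreductase, had no read in control and a median of 30.6 in light, with no overlap of the groups. Aen, an apoptosis-enhancing nuclease, had medians of 30.3 and 98.6 (2.15 ± 0.42, adjusted p = 0.00200). Eda2r, a receptor of the tumour necrosis factor family, had medians of 0.266 and 25.1 (3.84 ± 0.78). Of 13 arrest targets 3 were higher and 1 lower. Those higher were Sfn, which encodes 14-3-3 sigma (1.28 ± 0.22), Btg1 (2.16 ± 0.42) and Plk2 (3.49 ± 0.82). Crip2, which encodes a LIM-domain protein, had medians of 1.25 and 114 (5.30 ± 0.64, adjusted p = 2.00e-05). Of 30 regulators 2 were higher and 4 lower. The acetyltransferases Crebbp (-1.39 ± 0.25) and Ep300 (-1.29 ± 0.23), coactivators of p53, were lower in light. Rpl5, a ribosomal protein that binds MDM2, was higher (1.13 ± 0.19). Prkab1, a subunit of AMP-activated kinase, was higher by 1.05 ± 0.30.

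In morulae 5 of 115 were called (4.35%, 1 higher and 4 lower), beside 1.18% of all genes. Pmaip1 was higher again (medians 10.6 and 129.8, 3.66 ± 0.87, adjusted p = 0.0288). Npm1 (-1.07 ± 0.22), Trim28 (-1.43 ± 0.30), Crebbp (-1.43 ± 0.32) and Tigar, which lowers glycolytic flux (-1.16 ± 0.29), were lower. In blastocysts 6 of 110 were called (5.45%, all lower in light), beside 5.34% of all genes and with the median of all genes at -0.64. Among them were Trim28 (-1.40 ± 0.38), Rev3l (-2.62 ± 0.68), Ulk1 (-2.19 ± 0.46), Plxnb2 (-2.79 ± 0.57) and Dusp5 (-2.30 ± 0.68). The list medians in blastocysts lay between -0.72 for DNA repair and -0.04 for secreted and other targets.

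The 10 genes did not vary as 1 block. Over the 67 libraries, which share size factors and stage, Mdm2 varied most like Trp53inp1 (Pearson r 0.64) and Sesn2 (0.61), and Ccng1 most like Phlda3 (0.66) and Zmat3 (0.58). Sesn2 and Phlda3 went opposite ways (-0.48). Trp53 RNA had an r between -0.08 and 0.35 with its 9 targets. Of 10737 genes compared, those with a Gm number, a Rik symbol or a dot in the symbol were left out of the ranking. Among the rest, Ywhae (0.61), Prpsap2 (0.58) and Wdr4 (0.57) had the pattern most like Trp53. For Mdm2 these were Tfb2m (0.72), Ube2n (0.70) and Coq4 (0.70), and for Cdkn1a the ribosomal protein genes Rpl34, Rpl35a and Rps18 (0.73 each).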

How the data were processed

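RNA of 67 single-cell libraries was measured by SMART-seq2. The authors deposited 1 table of 26414 genes. Its values are a signal that the authors had made by scaling each library's reads with 1 size factor. RPKM is named in the study's methods, but a division by length was not seen. After undoing the size factor, 99.97% or more of each library's values were whole reads within 0.01 reads. The submitters' processing notes name HISAT2, HTSeq 0.9.1 and mm9. Coordinates and exon lengths are from GENCODE (GRCm38) and promoters from RefSeq (GRCm38.p6). The table itself holds symbols and no coordinates.

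Groups came from the labels, and each library was 1 replicate. limma 3.58.1 (lmFit, eBayes with trend, R 4.3.3) was run on log2(value + 1) keeping genes over 1 in 3 or more libraries of the fit, for 5 comparisons of light with control, 4 steps in each group and 4 interactions. The design had been written for normalized values and was kept. Alternatives were a pseudocount of 0.1, no filter, a mean above 5, median ratio scaling, quantile normalization, CPM outside CT010467.1 and Gm42418, 1 fit over all libraries, DESeq2 1.42.0 and edgeR 4.0.16 (TMM, quasi-likelihood test) on whole reads recovered from the values, a block for the replicate number, and leaving out every library singly. edgeR and DESeq2 were run on the comparisons of light with control only. limma and edgeR were tested on simulated data.

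The members and lists were chosen with earlier results of these data known. All 10 members were named, and of the other lists up to 3 called genes for each list and stage by smallest p. A gene that this rule would name is not reported here. Atm, Chek2 and, in 2-cell embryos, Crebbp were named after their values were seen. For Trp53, Mdm2 and Cdkn1a the 3 genes with the highest Pearson r over the libraries were named, without Gm numbers, Rik symbols and dotted symbols. Counting error is limited by 318176 to 2867034 reads per library outside the ribosomal pair, and a bound against 0 used 3 reads over the group. Since values are relative within a library, a change of 1 gene and of the total RNA of a cell cannot be told apart. Python 3.11.15, numpy 2.4.6, pandas 2.3.3 and matplotlib 3.10.9 were used.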

Additional observations from a re-analysis of the deposited data

Results flagged for a closer look

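In 7 of 77 groups of 4 to 10 libraries, 1 library lay far from the others by Dixon's test, where chance gives about 1 in 20. In light 8-cell library 8, Trp53 was lowest at 0.387 (next 19.3) and Zmat3 lowest at 0 (next 15.7). In light morula library 9, Btg2 was lowest at 1.21 (next 23.6) and Trp53inp1 lowest at 44.8 (next 278.3). Among light morulae that library had the highest summed levels of maternal transcripts (81.4 CPM), trophectoderm markers (1754 CPM) and Y-linked genes (143 CPM). It also had the fewest reads outside the ribosomal pair (466903). The part of these in its low values was not tested. Mdm2 was lowest in control 4-cell library 2 at 3.28 (next 88.1). Ccng1 was highest in light 2-cell library 15 at 116.8 (next 20.1), and Phlda3 was highest in control 2-cell library 9 at 3.45 (next 0.397).

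The difference of Ccng1 between light and control was 5.52 higher at the 8-cell than at the 4-cell stage in the interaction test (log2 scale, adjusted p = 0.0144). Most of the change was in the control group, whose 4 libraries at the 8-cell stage had 6 reads of Ccng1 in all. Library handling and light cannot be told apart at the 8-cell stage.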

How the results depend on the processing

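The number of the 10 genes called between light and control changed with the processing as follows. In 2-cell embryos it was 3 and became 1 in a fit over all 67 libraries, 2 with no filter on low values and 4 with a mean above 5, with CPM outside the ribosomal pair, in edgeR and in DESeq2. At the 4-cell stage it was 0 and became 1 in DESeq2. In morulae it was 1 and became 0 with no filter on low values, 2 with a mean above 5, median ratio scaling, quantile normalization, CPM or DESeq2, and 3 in the fit over all libraries. In blastocysts it was 0 and became 1 with median ratio scaling, quantile normalization or CPM and 3 in DESeq2. At the 8-cell stage it was 2 in every setting except without light library 8, where it was 4. The control steps gave 8 calls and 9 with a mean above 5 or median ratio scaling, and the light steps 17, 16 with a pseudocount of 0.1 and 14 with no filter or median ratio scaling. The interactions gave 1 call and 2 with a pseudocount of 0.1 or a mean above 5. With 1 library left out the counts ranged from 2 to 4 (2-cell), 0 to 0 (4-cell), 2 to 4 (8-cell), 0 to 2 (morula) and 0 to 0 (blastocyst), from 7 to 9 and 15 to 19 for the steps of the control and light group, and from 1 to 3 for the interactions. In morulae 11 libraries brought the count to 0 and light library 9 or control library 2 or 21 to 2. The interactions gave 2 without control 4-cell library 2 or 3, light 2-cell library 15 or 16 or light 4-cell library 7, and 3 without light morula library 9. No result that had been called changed its sign under any setting. The cause of these changes was not tested.

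Deviations of same-numbered libraries from their group means had an r between -0.08 and 0.07. Without the same value for differently numbered libraries, this does not show whether the numbers pair them. With the replicate block the calls became 0 in 2-cell embryos, 0 in morulae, 0 over 3 control steps (4 without the block) and 1 over 3 light steps (9 without the block), and of all genes 0 were called in 2-cell, 4-cell and morula comparisons. At the 8-cell and blastocyst stages light and control shared no replicate numbers, so the block could not be fitted there. In the other fits a library whose number was not shared adds nothing to the comparison. Shared numbers were 3 in 2-cell embryos, 3 in 4-cell embryos, 4 in morulae and 2 to 5 in the steps. With so few shared numbers, the block does not decide whether the calls hold or fail.

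Counts over all genes moved by more than 1.5 times as well. The 218 genes at the 4-cell stage were 136 (pseudocount 0.1), 53 (no filter), 579 (1 fit) and 773 (DESeq2). The 1276 at the 8-cell stage were 829 in edgeR. The 179 in morulae were 278 (median ratio), 306 (quantile), 272 (CPM), 761 (1 fit) and 427 (DESeq2). The 680 in blastocysts were 286 (pseudocount 0.1), 264 (no filter), 272 (median ratio), 200 (quantile), 271 (CPM), 450 (1 fit) and 129 (edgeR). From the 4-cell to the 8-cell stage, 847 in control became 421 (no filter) and 274 (median ratio), and 1602 in light became 384 (median ratio). For the interactions, 627 (4-cell minus 2-cell) became 407 and 265 (blastocyst minus morula) became 152 with a pseudocount of 0.1, and the latter 49 with a mean above 5. Single libraries moved these counts too. Besides those given for light against control, 847 became 340 to 508 without control 4-cell library 4, 5 or 6 or control 8-cell library 3 or 4. From the 8-cell stage to the morula in control, 2145 became 1396 without control 8-cell library 2, and from morula to blastocyst 1775 became 865 to 1014 without any 1 of the 3 control blastocysts. The interaction counts became 314 to 406 (627 before) without control 2-cell library 9 or light 2-cell library 10, 12 or 14, and 965 without control 4-cell library 3. That library also brought 646 (8-cell minus 4-cell) to 971, and control blastocyst library 2 brought 265 to 156.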
